A study of Mus musculus with 2 samples.

Results

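The 9 genes described here encode chemokines that medullary thymic epithelial cells (mTECs) use to draw in T cells and dendritic cells, namely Ccl21a, Ccl19, Ccl17, Ccl22, Xcl1, Ccl5, Ccl11, Cxcl14 and Cxcl10. They were chosen by symbol out of 32285 listed genes, and all 9 had UMIs (unique molecular identifiers, each a counted RNA molecule) in the cells kept. TECs were sorted as CD45-TER119-EpCAM+ cells from collagenase-digested thymi of female C57BL/6 mice and measured by droplet scRNA-seq in 2 libraries, each a pool of 3 mice. One pool came from mice that had received 5.5 Gy of γ-rays at 7 weeks of age and was taken 15 days later, and the other came from age-matched mice without irradiation. Per the labels the mice were 9 weeks old, and the labels carry the 2 condition names the other way round. The names control and irradiated are assigned here by the numbers of cells that passed the study's filter, which point to the opposite assignment from the labels. If the labels are right, every direction between the libraries given here is reversed.

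Chemokines are small secreted proteins that attach to matrix and guide cells carrying the matching receptor. In the thymus, thymocytes that have passed positive selection in the cortex gain the receptor CCR7 and move to the medulla, where CCL21 and CCL19 are its ligands. CCL17 and CCL22 bind CCR4, XCL1 binds XCR1 on cross-presenting dendritic cells, and CXCL10 binds CXCR3. CCL5 attracts T cells and monocytes, CCL11 binds the eosinophil receptor CCR3, and CXCL14 is a chemokine whose receptor is debated. mTECs are not uniform. Basal, Krt5-rich mTECs are the known source of CCL21, and cells with the autoimmune regulator Aire display tissue-restricted antigens before passing into later forms that resemble cells of skin, gut or tuft epithelium.

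Cells were placed in gates by UMIs of marker genes, none of them one of the 9 chemokines. The basal gate (943 control and 1539 irradiated cells) required at least 4 Krt5 UMIs with further basal marker UMIs, the Aire-high gate (704 and 1141) at least 4 Aire UMIs, the Aire-low gate (82 and 124) 1 to 3 Aire UMIs with Fezf2 and little Krt5, and the dividing gate (268 and 685) several cell-cycle genes. Cortical TECs (cTEC, 90 and 163) were gated by Psmb11, tuft-like cells (137 and 132) by Trpm5 and 5 related genes, and Pdpn+ cells (122 and 68) by Pdpn RNA with under 4 Krt5 UMIs and no Aire. The enterocyte-like (45 and 73), keratinocyte-like (39 and 31) and microfold-like (17 and 18) gates had under 50 cells in at least 1 library. In 8 of the gates every listed marker was higher than in the remaining cells, in the Aire-low gate 5 of 6 were (all but Aire), and in the Pdpn+ gate only 2 of 4 were, so this gate stands for cells with Pdpn RNA and not for a type. Cells with markers of 2 gates (227 and 379) or of none (559 and 717) were kept apart. The kept cells, 3233 control and 5070 irradiated, held 51586327 and 75542631 UMIs, with medians of 13412 and 13004 a cell. The libraries shared 17 barcodes, and 5 control and 7 irradiated kept cells carried one of them.

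A level below is the number of UMIs of a gene per 10000 UMIs summed over the cells of a gate, with its exact Poisson 95% interval. With 1 library per condition there was no test between conditions. The intervals cover counting error only and not the spread between mice or between cells, so a difference beyond them compares these 2 libraries and not irradiated with control mice.

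The promoters of the 3 members with the most UMIs are shown, because the interferon and NF-kB gene lists are read beside their levels further on. Each stretch is the 250 bases before the RefSeq start site on GRCm38.p6. Capitals mark, on either strand, GGGA followed by any 4 bases and CC, a form of the NF-kB site, or GAAA followed by any 2 bases and GAAA, a form of the interferon-stimulated response element.
Ccl21a (chr4:42773992-42774241, minus strand): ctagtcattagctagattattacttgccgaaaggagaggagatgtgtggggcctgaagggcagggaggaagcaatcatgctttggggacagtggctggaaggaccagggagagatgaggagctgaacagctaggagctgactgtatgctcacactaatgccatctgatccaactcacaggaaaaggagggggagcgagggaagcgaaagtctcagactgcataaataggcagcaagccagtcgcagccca
Ccl19 (chr4:42756366-42756615, minus strand): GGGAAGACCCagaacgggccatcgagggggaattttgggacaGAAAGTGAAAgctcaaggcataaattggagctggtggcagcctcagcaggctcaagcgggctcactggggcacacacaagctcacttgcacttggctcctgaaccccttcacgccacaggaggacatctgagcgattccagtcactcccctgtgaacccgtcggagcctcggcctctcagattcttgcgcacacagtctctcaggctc
Cxcl10 (chr5:92348890-92349139, minus strand): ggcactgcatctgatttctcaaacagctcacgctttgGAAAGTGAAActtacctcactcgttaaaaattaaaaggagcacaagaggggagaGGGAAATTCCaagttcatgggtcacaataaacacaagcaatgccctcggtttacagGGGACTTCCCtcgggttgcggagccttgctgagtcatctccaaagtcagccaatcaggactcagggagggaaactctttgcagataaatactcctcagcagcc

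The Cxcl10 stretch held 2 matches to the first motif, 159 and 103 bases before the start site, and 1 to the second, 213 bases before it. The Ccl19 stretch held 1 match to each, and the Ccl21a stretch held neither set of letters. In the GENCODE M21 annotation the Ccl19 gene begins further upstream, at chr4:42756577. Most of the Ccl19 stretch, with its match to the second motif, thus lies inside the gene as annotated there. Promoters of 7 of the 9 members were in the table. Of these 7, 3 held the first motif (Ccl19, Ccl22 and Cxcl10) and 3 the second (Ccl19, Cxcl14 and Cxcl10), against 17.6% and 2.98% of all 32851 promoters of this length. A match describes letters and not a bound site.

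**Figure D1:**
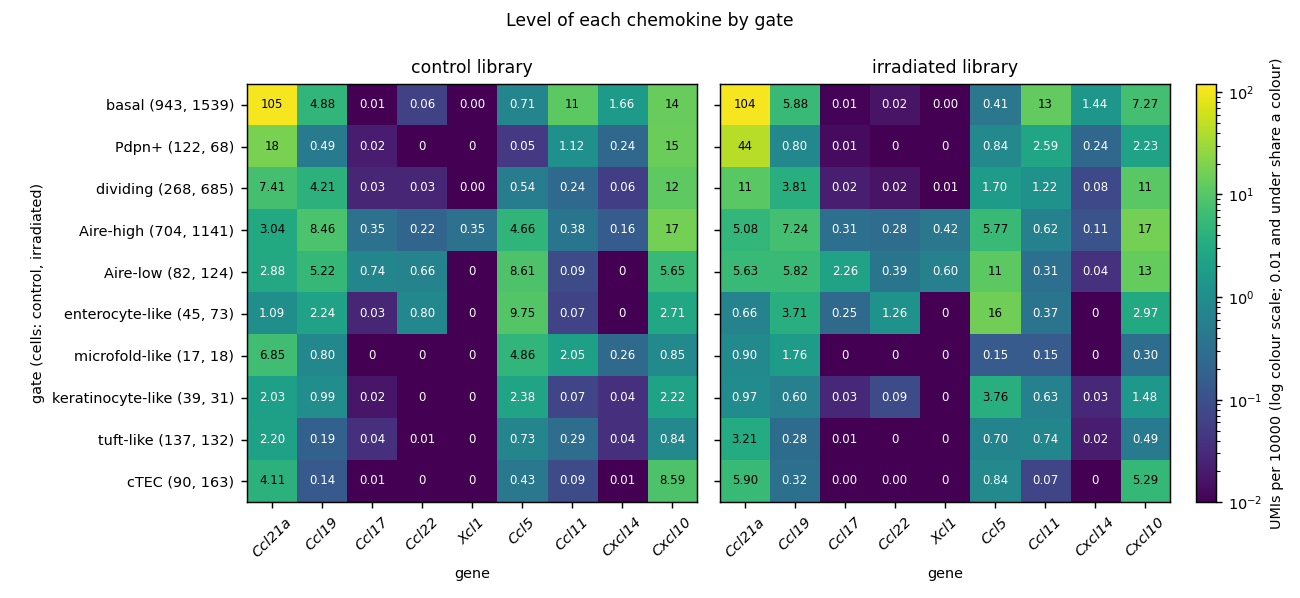
Level of each chemokine (columns) in each gate (rows, with numbers of control and irradiated cells) in the control library (left) and the irradiated library (right), in UMIs per 10000 on a log colour scale. A printed 0 means no UMI and 0.00 a level under 0.005. Ccl21a, Ccl11 and Cxcl14 were highest in basal cells, Ccl19 and Cxcl10 in Aire-high cells, and Ccl17, Ccl22, Xcl1 and Ccl5 in Aire-low, Aire-high or enterocyte-like cells.

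Ccl21a, the main CCR7 ligand of the medulla, was a gene of basal cells. In them it reached 105 UMIs per 10000 (104 to 106) in the control library and 104 (104 to 105) in the irradiated library. These cells held 73.8% and 70.4% of all its UMIs. The level was next highest in Pdpn+ cells (17.9 and 44.5) and dividing cells (7.41 and 10.7), and both steps down were beyond the intervals in both libraries.

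Nearly every basal cell carried it. With each cell thinned to 4000 UMIs, 96.1% of control basal cells (exact 95% interval 94.6 to 97.2) and 98.1% of irradiated ones (97.3 to 98.7) had a UMI of Ccl21a. Among tuft-like cells, which are not known to make it, the shares were 13.9% and 16.7% at median depths of 12442 and 9904 UMIs a cell, against 11030 and 10280 in basal cells. The cTEC shares of 20% and 27% lay near those of tuft-like cells. Basal cells with a UMI had a median of 115 control and 101 irradiated UMIs, and 245 of the 943 control cells held 50% of the gate's UMIs, so expression was spread over the whole gate.

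Between the libraries Ccl21a in basal cells differed by less than counting error. The log2 ratio of irradiated over control was -0.01 (range -0.02 to 0.01, from the opposite ends of the 2 intervals). It was higher in the irradiated library in every other gate with 50 cells per library, by 0.52 in cTECs, 0.53 in dividing cells, 0.55 in tuft-like cells, 0.74 in Aire-high cells, 0.97 in Aire-low cells and 1.31 in Pdpn+ cells on the log2 scale. In Aire-high cells the level went from 3.04 to 5.08, while Krt5 went from 1.17 to 2.13 in the same cells. The part that RNA released from basal cells played in these low levels was not tested.

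A further set of cells carried markers of both cTECs and basal cells, 42 in the control and 162 in the irradiated library. Their Ccl21a level was 43.4 (42.1 to 44.8) and 23.4 (22.9 to 24.0), between those of the 2 gates. Psmb11 in them was 8.18 and 10.5, against 12.5 and 13.2 in cTECs. Their median depth of 19604 and 18719 UMIs was above that of either gate, and whether they were doublets was not tested.

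The gene lies at chr4:42772860-42773993 on the minus strand (GENCODE M21, GRCm38), 16283 bases from Ccl19. Near-identical copies make its counts uncertain. A further row under the name Ccl21a, on an unplaced scaffold, had 1 control and 2 irradiated UMIs. The copies Ccl21b, Ccl21c, Gm13304 and Gm10591 had 0 to 7 UMIs per library, and Gm21541 had 168 and 159. The promoter of Gm13304 matched that of Ccl21a at 247 of 249 compared bases. Reads that fit several copies are commonly left out of such counts, and how many were lost here is unknown.

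Ccl19, the other CCR7 ligand, had a different pattern. It was highest in Aire-high cells, at 8.46 (8.31 to 8.61) in the control and 7.24 (7.12 to 7.36) in the irradiated library. Aire-low cells (5.22 and 5.82) and basal cells (4.88 and 5.88) came next and did not differ from each other beyond the intervals in both libraries. Dividing cells had 4.21 and 3.81, and cTECs had 0.14 and 0.32. Aire-high cells held 46.1% and 38% of its UMIs and basal cells 21.7% and 27.6%.

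Ccl19 was widespread in these gates, in 78.7% of control and 78.4% of irradiated Aire-high cells after thinning and in 62.7% and 65.8% of basal cells, against 5.11% and 3.79% of tuft-like cells. Its log2 ratio was -0.22 (-0.27 to -0.17) in Aire-high cells and 0.27 (0.20 to 0.34) in basal cells. Of basal cells with a Ccl21a UMI, 64.8% and 66.9% also had Ccl19, against 10.8% of 37 control and 6.90% of 29 irradiated basal cells without Ccl21a. A scaffold copy of Ccl19 had no UMI.

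**Figure D2:**
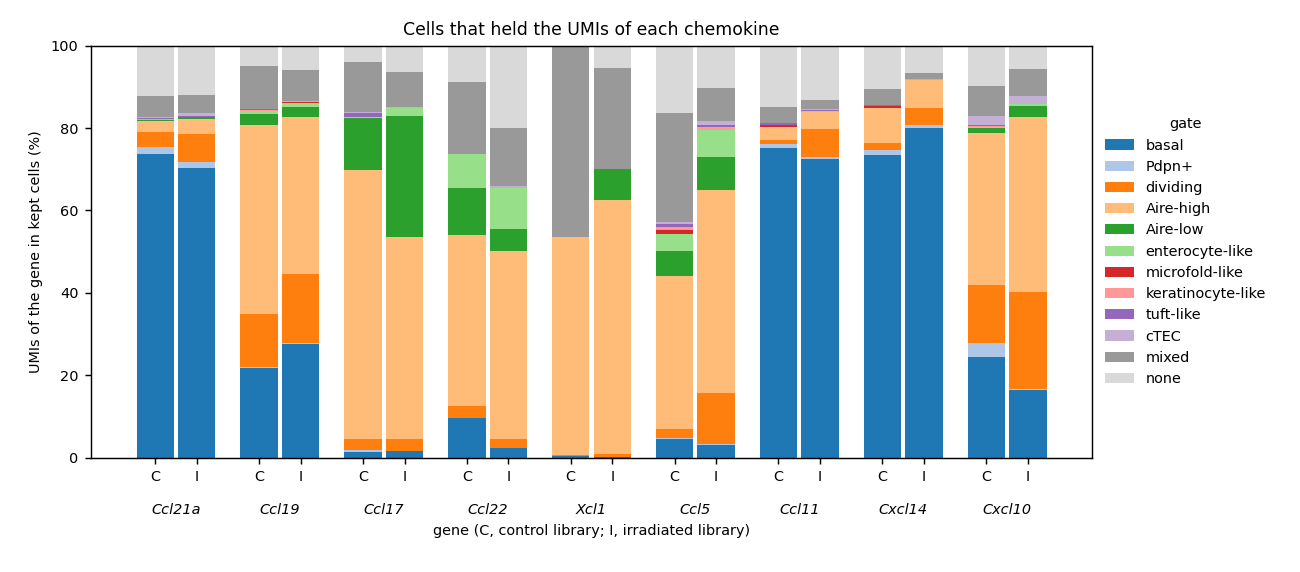
Share (%) of the UMIs of each chemokine that each gate held, for the control (C) and irradiated (I) library. Basal cells held 70.4% to 80.1% of the UMIs of Ccl21a, Ccl11 and Cxcl14, and cells with markers of 2 gates (mixed) held 46.2% of control Xcl1.

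Ccl11, best known as the eosinophil chemokine eotaxin, was like Ccl21a highest in basal cells. Its level in basal cells was 11.3 (11.1 to 11.5) in the control and 12.5 (12.3 to 12.7) in the irradiated library, and the next gate, Pdpn+ cells, had 1.12 and 2.59. Basal cells held 75.1% and 72.4% of its UMIs. But it was patchy within the gate. After thinning, 55.2% and 55.7% of basal cells had a UMI, and 50% of the gate's UMIs lay in 74 of 943 control and 128 of 1539 irradiated cells.

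The log2 ratio of Ccl11 in basal cells was 0.15 (0.10 to 0.19). In dividing cells it was 2.32 (2.05 to 2.6), from 0.24 to 1.22, and in Aire-high cells 0.71 (0.51 to 0.92), from 0.38 to 0.62. Leaving out the cell with the most Ccl11 UMIs in each library gave 2.51 in dividing cells, and in tuft-like cells it turned 1.34 to -0.55. Fibroblasts are a known source of this chemokine. The summed level of the 7 fibroblast markers in basal cells was 3.59 and 2.38, most of it Dcn, and it was 3.15 control and 2.34 irradiated in basal cells with Ccl11 against 4.41 and 2.46 in those without. In the whole gate Dcn had 3676 control and 3562 irradiated UMIs, Col3a1 203 and 364, Lum 87 and 89 and Col1a1 54 and 28. Pdgfra had 25 and 26, Col1a2 11 and 9 and Pdgfrb 6 and 8. Of the gate's Ccl11 UMIs, 43.9% and 48.7% lay in cells with none of the 7 markers. The share of all basal cells with none of them was not read, so these 2 values have no base for comparison. In Pdpn+ cells, the gate with the next Ccl11 level, the 7 markers summed to 19.7 and 14.9. The part of fibroblast RNA in the Ccl11 levels of both gates was not tested.

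Cxcl14 shared the basal pattern at a lower level, with 1.66 (1.58 to 1.73) and 1.44 (1.38 to 1.5). Basal cells held 73.4% and 80.1% of its UMIs, and 33.4% and 29.2% of them had a UMI after thinning, against 3.65% and 0% of tuft-like cells. The 0 of 132 irradiated tuft-like cells allows a share of up to 2.27% by a limit of 3 counts, or 2.76% by the exact interval, and before thinning 2 of these cells had a UMI. The log2 ratio in basal cells was -0.20 (-0.33 to -0.08). In Aire-high cells it was -0.52 (-0.91 to -0.12) on 215 and 208 UMIs.

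Within basal cells Ccl11 and Cxcl14 went together. Of control cells with Cxcl14, 67.9% had Ccl11, against 48.9% of those without, and in the irradiated library the shares were 67.5% and 50.8%. All 315 control and 449 irradiated Cxcl14+ basal cells had Ccl21a, but so had 94.1% and 97.3% of those without Cxcl14. Over the 20 points formed by 10 gates in 2 libraries, Pearson's r of log2 levels was 0.92 for Ccl11 and Cxcl14, 0.87 for Ccl21a and Cxcl14 and 0.81 for Ccl21a and Ccl11, but 0.18 for Ccl21a and Ccl19. These points share libraries and differ in depth, so r is a description.

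Ccl17 and Ccl22, the CCR4 ligands, lie in 1 stretch of chromosome 8 (chr8:94810453-94812036 and chr8:94745590-94751699, both plus strand), 58754 bases apart with Cx3cl1 between them. Both were rare. The Aire-high and Aire-low gates held 65.2% and 12.6% of control and 48.9% and 29.4% of irradiated Ccl17 UMIs, but only 41.6% and 11.5% and 45.6% and 5.23% of Ccl22 UMIs. Ccl17 was highest in Aire-low cells, at 0.74 (0.60 to 0.91) in the control and 2.26 (2.04 to 2.51) in the irradiated library, with 0.35 and 0.31 in Aire-high cells and 0.01 or less in cTECs. Ccl22 in Aire-low cells was 0.66 (0.53 to 0.82) and 0.39 (0.30 to 0.50) and in Aire-high cells 0.22 and 0.28. The small enterocyte-like gate had 0.80 and 1.26, but 55 of its 59 control UMIs lay in 1 cell, and without the top cell of each library its levels were 0.06 and 0.77. The control cell with the most Ccl22 was a basal cell with 63 UMIs, and the irradiated one was in no gate and had 139.

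A few cells carried these values. After thinning, 4.97% of control and 5.78% of irradiated Aire-high cells had a UMI of Ccl17, and 3.98% and 5.08% had Ccl22. In Aire-low cells 13 of 82 control and 13 of 124 irradiated cells had any Ccl17, and 2 and 3 of them held 50% of it. The log2 ratio of Ccl17 there was 1.61 (1.16 to 2.07), but the thinned share was 6.10% (2.01 to 13.7) against 7.26% (3.37 to 13.3). Without the cell with the most Ccl17 in each library the ratio was 2.04, and as a mean over cells it was 0.60. For Ccl22, 7 Aire-low cells per library had a UMI, and its ratio of -0.77 (-1.47 to -0.09) rests on them.

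The 2 CCR4 ligands met in the same cells more often than elsewhere in the gate. Of 35 control Aire-high cells with Ccl17 after thinning, 17.1% had Ccl22, against 3.29% of the 669 without. In the irradiated library it was 18.2% of 66 cells against 4.28% of 1075. Ccl5 was likewise in 40.0% and 39.4% of Ccl17+ cells, against 25.4% and 21.4% of the others. Dendritic cells are known for both chemokines. The dendritic cell and macrophage markers summed to 8.55 control and 7.62 irradiated in Ccl17+ Aire-high cells and 7.26 and 6.40 in the rest. Lyz2 had 9607 and 11736 UMIs in the gate, C1qa 299 and 461, Csf1r 165 and 178, Flt3 90 and 88, Xcr1 65 and 54, Cd209a 26 and 21, Itgax 8 and 12, Siglech 4 and 4 and Clec9a 3 and 5. The part of such cells in Ccl17 and Ccl22 was not tested.

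Xcl1, the ligand of XCR1, was found in the fewest cells of the 9. It had 916 UMIs in 30 control cells and 1306 UMIs in 41 irradiated cells, and the rest had none. The Aire-high gate held 486 and 805 of them (0.35 and 0.42 per 10000, log2 ratio 0.26, range 0.03 to 0.49) in 20 cells of each library. Cells with markers of 2 gates held a further 423 and 322. Aire-low cells had no UMI in the control library, which allows up to 0.02 per 10000, and 0.60 (0.49 to 0.73) in the irradiated library, where 5 of 124 cells held it. cTECs, tuft-like and enterocyte-like cells had none, which allows up to 0.02 per 10000 in control cTECs.

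Where Xcl1 was on, it was high in single cells. Among Aire-high cells, 10 control and 12 irradiated cells with at least 10 UMIs held 96.7% and 97.4% of the gate's Xcl1. One control cell with Aire-high and enterocyte-like markers had 310 UMIs, 33.8% of the control total. After thinning, 1.56% (0.78 to 2.78) of control and 1.31% (0.74 to 2.16) of irradiated Aire-high cells had a UMI. Without the 1% of cells with the most Xcl1 the ratio was -1.39, and with cells of 2 gates counted in the gate it was -0.14.

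XCL1 is also made by NK and CD8+ T cells, so their RNA was looked at in the same cells. Over the 20 Xcl1+ Aire-high cells of each library, the 11 thymocyte markers summed to 3.26 control and 3.61 irradiated, against 0.99 and 0.79 in the rest of the gate. The 6 NK and cytotoxic markers summed to 2.12 and 0.56, against 0.27 and 0.35. Both sums were thus higher in the cells with Xcl1. Of the gate's Xcl1 UMIs, 85.4% control and 99.0% irradiated lay in cells with none of the NK and cytotoxic markers. For the thymocyte markers it was 37.0% and 46.3%. The share of all Aire-high cells with none of these markers was not read, so these values have no base for comparison. The part of lymphocyte RNA in the Xcl1 level was not tested. Single markers were read in the 10 control and 12 irradiated Aire-high cells with at least 10 Xcl1 UMIs. They were Cd3e, Ptprc and Trbc2 of the 11 thymocyte markers and Nkg7 of the 6 NK and cytotoxic markers. The 10 control cells had 1 UMI of Cd3e, 18 of Nkg7, 4 of Ptprc and 4 of Trbc2. The 12 irradiated cells had 4 of Trbc2 and 0 of the other markers just named. The remaining markers of both sums were not read singly. Aire in these 10 and 12 cells was 13.9 and 9.26, against 11.4 and 11.9 in Aire-high cells without Xcl1, and Epcam was 4.52 and 6.65. S100a8, a calcium-binding protein of myeloid and stressed epithelial cells, was 24.4 in the 10 control cells and 8.38 in the 12 irradiated ones, against 7.77 and 7.89 in cells without.

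**Figure D3:**
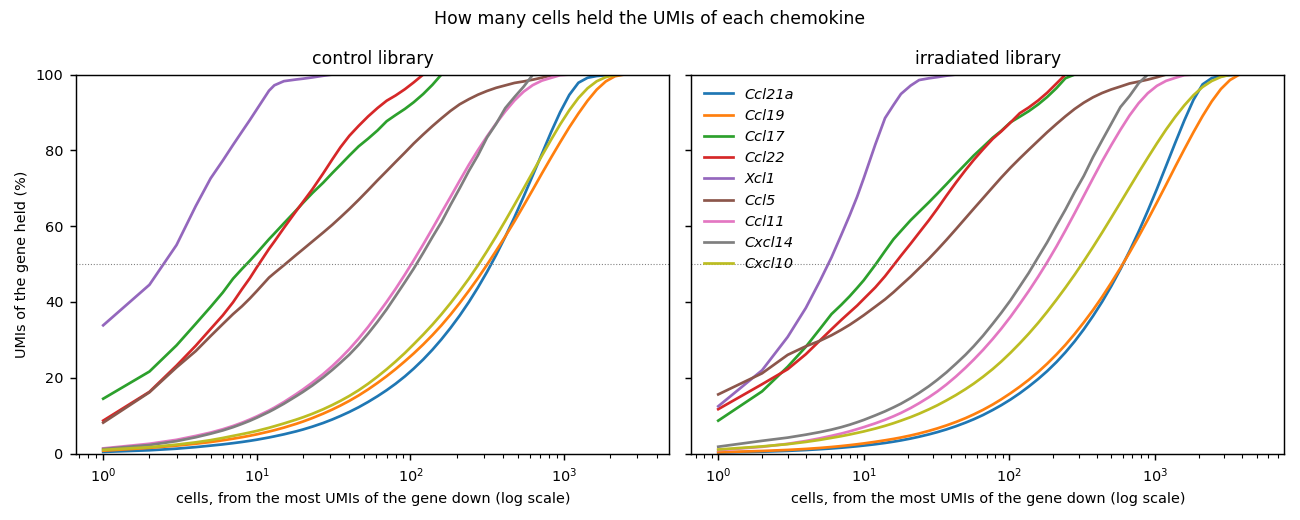
Share (%) of the UMIs of each chemokine held by the cells with the most of it, counted from the highest cell down on a log axis, for each library. For Xcl1, 3 control and 6 irradiated cells reached 50% (dotted line), for Ccl5 16 and 26, and for Ccl21a 336 and 606.

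Ccl5, an attractant of T cells and monocytes, had its highest levels over both libraries in the enterocyte-like, Aire-low and Aire-high gates. The enterocyte-like gate had 9.75 (9.05 to 10.5) and 15.7 (14.9 to 16.5), Aire-low cells 8.61 (8.11 to 9.14) and 11.5 (10.9 to 12.0), and Aire-high cells 4.66 (4.54 to 4.77) and 5.77 (5.66 to 5.88). Keratinocyte-like cells had 2.38 and 3.76 and the small microfold-like gate 4.86 and 0.15. Tuft-like cells had 0.73 and 0.70 and basal cells 0.71 and 0.41. The share of cells with a UMI after thinning was 42.7% and 40.3% in Aire-low cells and 26.1% and 22.4% in Aire-high cells, against 5.84% and 1.52% of tuft-like cells.

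Its level was also set by few cells, 16 of 3233 control and 26 of 5070 irradiated cells holding 50% of its UMIs. One irradiated Aire-high cell had 3505 UMIs of Ccl5, which was 13.3% of that cell's RNA and 15.6% of the gene's UMIs in the library. The log2 ratio in Aire-high cells was 0.31 (0.25 to 0.37), and -0.08 without the cell with the most Ccl5 in each library. In dividing cells it was 1.65 (1.45 to 1.84), where 1 irradiated cell had 1249 UMIs, and 1.12 without the top cells. In basal cells it was -0.80 (-1.01 to -0.60), and -0.01 without them. In Aire-low cells it was 0.41 (0.26 to 0.57), and 0.60 without them. Leaving out Aire-low cells with at least 5 UMIs of thymocyte, dendritic cell or fibroblast markers turned it to -0.12, and counting cells with markers of 2 gates in the gate turned it to -0.23.

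Cytotoxic lymphocytes also make CCL5. The markers of NK and cytotoxic cells summed to 0.50 control and 0.21 irradiated in Ccl5+ Aire-high cells and 0.20 and 0.43 in the others. Of the gate's Ccl5 UMIs, 95.9% and 95.5% lay in cells with none of these markers. The thymocyte markers summed to 1.27 and 1.17 in Ccl5+ cells, against 0.90 and 0.66 in the others. The dendritic cell and macrophage markers summed to 8.40 and 7.57, against 6.75 and 6.01. Cells without thymocyte markers held 43.9% and 75.5% of the gate's Ccl5 UMIs. Those without dendritic cell and macrophage markers held 17.8% and 24.9%. How many of all Aire-high cells lacked each set of markers was not read, so these shares have no base for comparison. The part of lymphocyte or myeloid RNA in the Ccl5 level was not tested.

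Cxcl10, an interferon- and NF-kB-responsive ligand of CXCR3, was not tied to 1 kind of cell. Aire-high cells had the highest level in both libraries, 16.8 (16.6 to 17.1) and 16.8 (16.6 to 17.0). Dividing cells had 11.6 and 11.0. Basal cells had 13.7 (13.4 to 13.9) in the control and 7.27 (7.14 to 7.40) in the irradiated library. Pdpn+ cells had 14.7 and 2.23, cTECs 8.59 and 5.29, Aire-low cells 5.65 and 12.9, and tuft-like cells 0.84 and 0.49.

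The ratio between the libraries thus differed by gate. It was 0.00 (-0.04 to 0.03) in Aire-high cells and -0.07 (-0.12 to -0.02) in dividing cells. It was -0.91 (-0.96 to -0.86) in basal cells, -0.70 (-0.85 to -0.55) in cTECs, -0.77 (-1.35 to -0.20) in tuft-like cells and -2.72 (-3.01 to -2.44) in Pdpn+ cells, and 1.19 (1.02 to 1.36) in Aire-low cells. The thinned share of basal cells with a UMI went from 59.2% (56.0 to 62.3) to 43.4% (40.9 to 46.0), while that of Aire-high cells was 76.6% and 73.4%. So Cxcl10 was lower in the irradiated basal cells both in level and in the share of cells that had it.

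Another set of genes also differed between the libraries. Immediate early genes (Fos, Fosb, Jun, Junb, Atf3, Egr1, Ier2 and Dusp1, a list put together after the data were seen), which rise within minutes of stress or of tissue digestion, were lower in the irradiated library in all 10 gates. In basal cells their sum was 82.6 in the control and 38 in the irradiated library, in Pdpn+ cells 94.2 and 36.8, in cTECs 41.7 and 18.0, and in Aire-high cells 24.4 and 16.8. In dividing cells it was 32.3 and 17.3, and in enterocyte-like cells 39.0 and 21.4. The log2 ratio of Cxcl10 was -0.07 in dividing cells and 0.13 in enterocyte-like cells. Basal cells were split into 3 groups of like size by the UMIs of the immediate early genes, over both libraries together.

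In the lowest group, of 190 control and 637 irradiated cells, Cxcl10 was 2.87 and 3.59, and its log2 ratio was 0.32 (0.16 to 0.49). The middle group had 8.47 and 8.68, with a ratio of 0.03 (-0.06 to 0.13). In the highest group it was 21.2 (477 cells) and 12.1 (350 cells), with a ratio of -0.80 (-0.87 to -0.74). The highest group held 50.6% of control and 22.7% of irradiated basal cells. In cTECs the ratio was 1.86, -0.28 and -0.20 in these groups, and in Pdpn+ cells 0.04, -1.58 and -3.82, the last on 54 and 10 cells. Ccl21a in basal cells stayed between 102 and 112 in all 3 groups of both libraries. The groups were cut over both libraries together, so within a group the libraries need not match in the immediate early genes. The part of these genes in the Cxcl10 difference was not tested.

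The interferon response list summed to 53.2 control and 53.9 irradiated in basal cells. Of its 18 genes tested, 0 were past 1.5 times in either direction, against 4.17% of all genes in this gate. Isg15 was 4.62 and 4.2 and Irf7 1.96 and 1.90. Irf1, which acts downstream of interferon and NF-kB, was 1.06 and 0.77 (log2 ratio -0.45). Cxcl9, a CXCR3 ligand next to Cxcl10 in the genome, was 0.71 and 0.69 in basal cells and 3.89 and 4.18 in Aire-high cells. In Aire-low cells, where Cxcl10 was higher in the irradiated library, Cxcl9 (0.85 and 4.27) was too. In them 5 of 11 interferon genes were past 1.5 times higher and 0 lower, against 4.72% and 6.39% of all genes. In that gate the thymocyte markers also went from 0.69 to 1.99, with Ptprc from 2 to 44 and Rag1 from 2 to 36 UMIs, and the NK and cytotoxic markers from 0.59 to 0.04. Their part in these values was not tested. In dividing cells 9 of 18 interferon genes were past 1.5 times higher and 0 lower, against 2.47% and 2.23% of all genes. Their median was 0.55 on the log2 scale, and Cxcl10 was at -0.07. The part of interferon in the Cxcl10 levels was not tested.

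**Figure D4:**
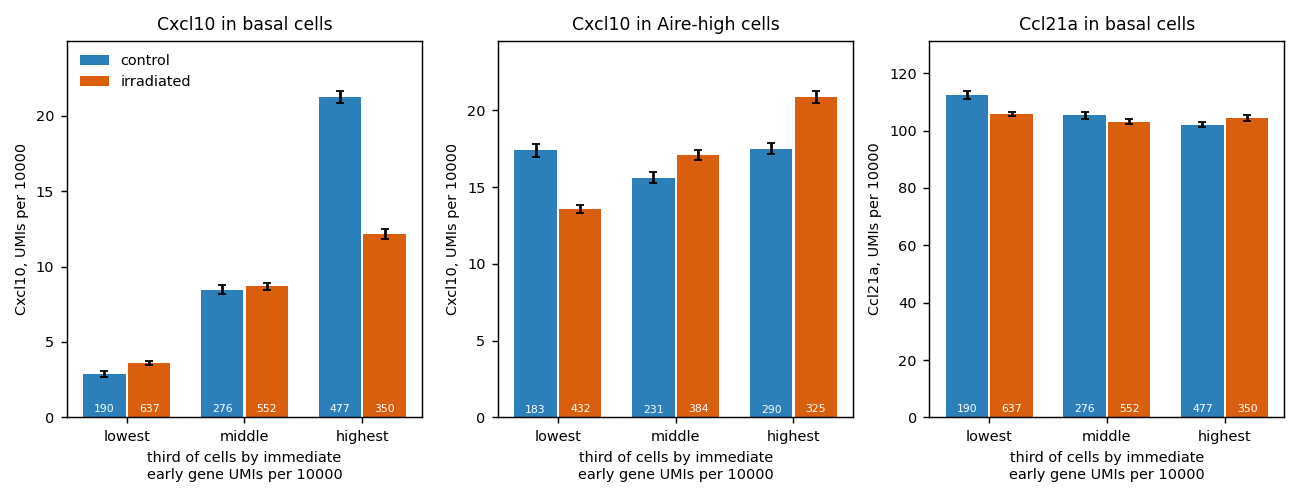
Level of Cxcl10 in basal cells (left) and Aire-high cells (middle) and of Ccl21a in basal cells (right), in UMIs per 10000 with exact Poisson 95% intervals, for cells split into 3 groups of like size by UMIs of 8 immediate early genes (numbers of cells at the foot of the bars). Cxcl10 in basal cells rose with these genes, from 2.87 to 21.2 in the control library and from 3.59 to 12.1 in the irradiated library, while Ccl21a stayed between 102 and 112.

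Across all genes with at least 100 UMIs in a gate, the share past 1.5 times between the libraries in either direction was 4.17% in basal cells, 8.3% in Aire-high cells, 11.1% in Aire-low cells, 4.71% in dividing cells, 5.45% in cTECs, 5.77% in tuft-like cells and 9.41% in Pdpn+ cells. Of the chemokines with that many UMIs, 2 of 6 in basal cells were past it, Cxcl10 and Ccl5, both lower. In Aire-high cells 2 of 9 were, Ccl21a and Ccl11, both higher. In Aire-low cells 3 of 6 were higher (Ccl21a, Ccl17 and Cxcl10) and Ccl22 was lower, and in dividing cells Ccl5 and Ccl11 of 6 were higher. In cTECs Ccl19 and Ccl5 of 4 were higher and Cxcl10 lower, in tuft-like cells Ccl11 of 4 was higher and Cxcl10 lower, and in Pdpn+ cells Ccl21a, Ccl19 and Ccl11 of 4 were higher and Cxcl10 lower. The cTEC with the most Ccl5 held 62 of 72 control and 206 of 232 irradiated UMIs of the gate. Without that cell in each library the levels were 0.06 and 0.09. Without the cell with the most UMIs in each library, Ccl5 in basal cells and Ccl11 in tuft-like cells were no longer past 1.5 times. The medians over all genes lay between -0.03 and 0.03 on the log2 scale.

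**Figure D5:**
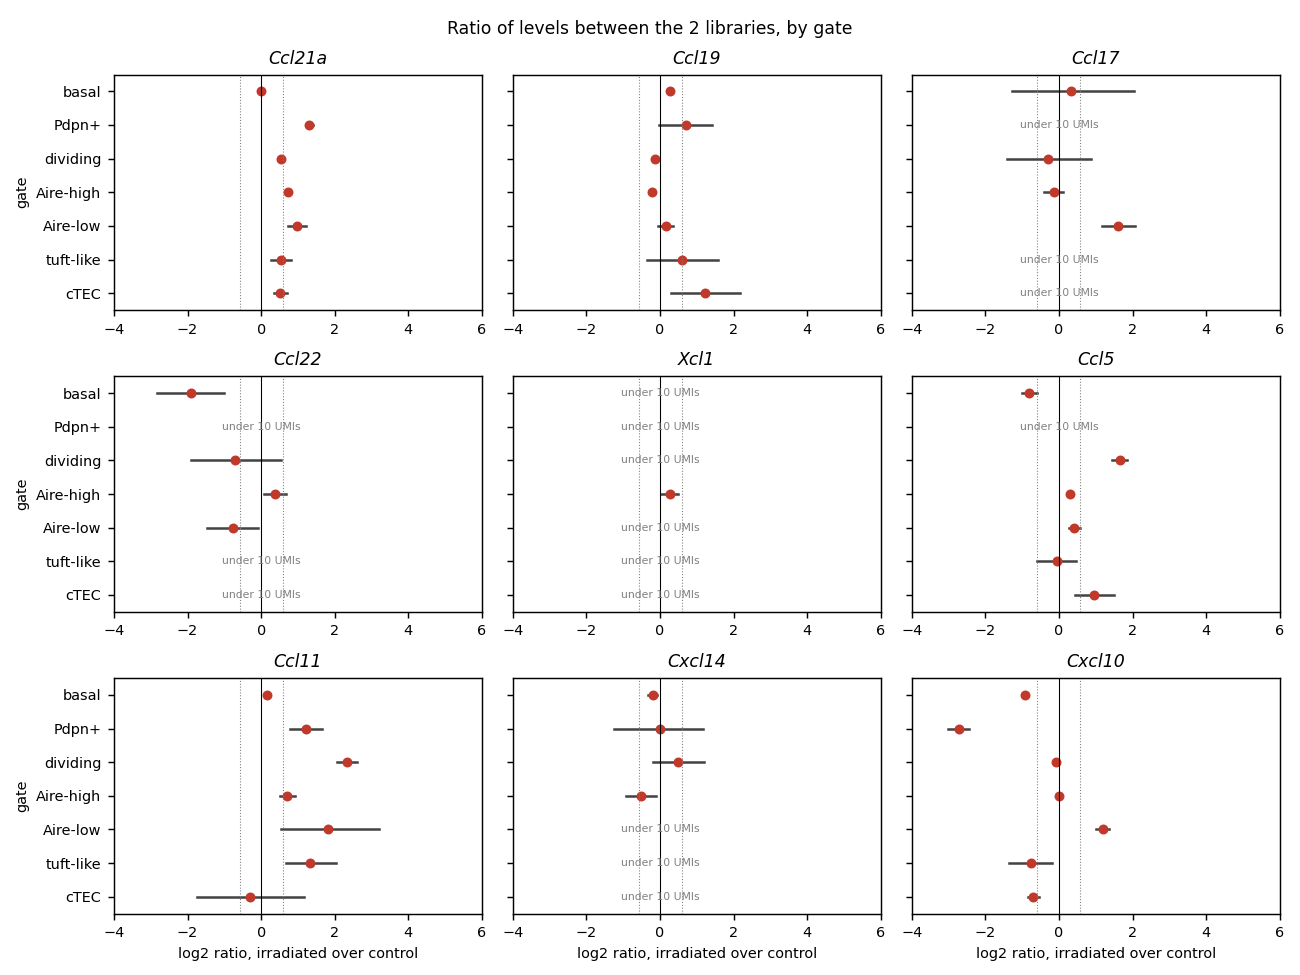
Log2 ratio of irradiated over control level for each chemokine (panels) in the 7 gates with at least 50 cells per library (rows). Points are ratios, bars run between the opposite ends of both exact Poisson 95% intervals, dotted lines mark 1.5 times, and pairs with under 10 UMIs in a library are not drawn. Ccl21a and Ccl19 in basal cells lay within 1.5 times, and Cxcl10 ran from -2.72 in Pdpn+ cells to 1.19 in Aire-low cells.

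The other chemokines of the list of 26 were read by the same rule. In basal cells 13 had at least 100 UMIs, of which 2 were past 1.5 times higher in the irradiated library, Ccl8 (0.35 and 0.86) and Ccl3, and 5 lower, the neutrophil attractants Cxcl1 (log2 ratio -1.60) and Cxcl2 (-1.43) and the monocyte attractants Ccl2 (-0.95) and Ccl7 (-0.62) with Ccl20 (-0.79). The median of the 13 was -0.25, against -0.02 for all genes, of which 0.998% were past 1.5 times higher and 3.17% lower. Cxcl12, the ligand of CXCR4, was 1.81 and 1.83. In Aire-high cells 21 could be read, at a median of 0.03. Of these 2 were higher, Ccl24 (2.43) and Ccl1 (0.92), and 5 lower, among them Cxcl1 (-1.15) and Cxcl2 (-0.94). Of all genes there, 2.53% were past 1.5 times higher and 5.77% lower. Ccl25, which draws thymocyte progenitors through CCR9, was 6.57 and 4.76 in Aire-high cells, within 1.5 times.

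NF-kB and receptor genes of the medulla, which act upstream of several of these chemokines, were mostly within 1.5 times, as were most genes. Of 16 read in Aire-high cells 0 were past it, against 8.3% of all genes. Relb was 3.63 and 3.97 there and Tnfrsf11a, which encodes RANK, 1.59 and 1.57. In basal cells 1 of 16 was, Cd40, from 0.17 to 0.26, against 4.17% of all genes. In Pdpn+ cells, where Cxcl10 differed most, 2 of 6 were, against 9.41% of all genes. These were Relb, higher (0.58 and 0.97), and Rela, lower (0.73 and 0.43). In the dividing, cTEC, tuft-like and Aire-low gates 0 of 16, 13, 9 and 14 were. Of all genes 4.71%, 5.45%, 5.77% and 11.1% were in these gates. Chemokine receptors had few UMIs. Ackr4, a scavenger that removes CCL19, CCL21 and CCL25, was 1.95 control and 0.85 irradiated in cTECs (log2 ratio -1.19), 3.88 and 2.26 in Pdpn+ cells (-0.78) and 0.32 and 0.31 in basal cells. Ccr7 itself was 0.29 and 0.25 in Aire-high cells.

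For each member the 5 genes with the most similar pattern over the 20 points, out of 15029 genes with at least 200 UMIs, were taken without regard to function. For Ccl21a they were Col6a1, Fzd2, Wfikkn2, Clrn1 and Gfra4 (r of 0.93 to 0.97), for Ccl11 Col6a2, Scn3b, C1s1, Vsnl1 and Cadm4 (0.87 to 0.92) and for Cxcl14 D630003M21Rik, Smtnl2, Col6a2, Chst5 and Slitrk4 (0.91 to 0.94). For Ccl19 they were Clmp, Ifi203, Pde1c, Rnf180 and Gm15821 (0.89 to 0.91), and for Cxcl10 Gm44752, Pxdn, Ciita, Gbp5 and Icam1 (0.85 to 0.92). For Ccl5 they were Creld2, Bcl2l1, Fcer1g, AI839979 and Tnfrsf17 (0.88 to 0.92), for Ccl17 Syndig1l, Tmprss6, Wfdc3, Spp2 and St6galnac3 (0.94 to 0.97), for Ccl22 Ighg3, 1810053B23Rik, Slc26a4, Camp and Ccl2 (0.93 to 0.95) and for Xcl1 Fam227b, Tdgf1, Sohlh1, Gm4926 and Atoh7 (0.98 to 0.99). For the rare members several of the 20 points were at 0.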

How the data were processed

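TECs of 2 libraries, 1 per condition and each from 3 pooled mice, were measured by droplet scRNA-seq. The authors trimmed the reads with Fastp, aligned them to mm10 and made UMI tables with Cell Ranger (5.0.1 per the file headers, 5.1 per the submitters' processing notes), and deposited the UMI counts without normalization for barcodes called as cells. The paper and the labels differ on the chemistry (version 3 and version 2), and the protocol in the labels gives an age of 4 weeks.

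Conditions were assigned by cell number, against the labels. Cells with more than 2000 and fewer than 7500 detected genes (over genes found in at least 5 barcodes) and under 15% mitochondrial UMIs were kept. No doublet caller was run, and cells with markers of 2 gates were left out of the gates. Both rows of a symbol were summed. Gates used markers only (some markers and list genes are not reported here), with minimum UMIs set after the distributions of the markers had been seen. Levels were UMIs per 10000 of a gate with exact Poisson 95% intervals, and shares had Clopper-Pearson intervals after thinning to 4000 UMIs, which left out 5 irradiated cells. A ratio used 0.5 added UMIs where a library had under 10. UMIs of 1 cell are not independent, so the intervals are too narrow for genes held by few cells. The gate used for the processing alternatives was, for each member, the one with its highest level among the 7 with at least 50 cells per library.

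Genes named were the members, their copies, 4 lists (other chemokines, receptors and scavengers, NF-kB and receptor genes, interferon genes) with at least 100 UMIs in a gate, and the 5 genes most like each member by Pearson's r of log2(level + 0.1). Members and lists were chosen with earlier results of these data known. On simulated counts with 200 changed genes, 99.5% of changed and 0.31% of other genes passed 1.5 times in basal cells (11327 genes), and 98.8% and 1.34% in Aire-low cells (4588 genes). All changed genes were set well beyond 1.5 times, higher or lower, so the shares that passed do not describe changes near 1.5 times. The simulated counts held Poisson counting error only, without spread between cells or mice. These shares therefore do not apply to genes held by few cells. Numpy 2.4.6, scipy 1.17.1 and pandas 2.3.3 in Python 3.11.15 were used. Promoters were those of RefSeq on GRCm38.p6 and gene positions those of GENCODE M21.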

Additional observations from a re-analysis of the deposited data

Results flagged for a closer look

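Some chemokines differed between the libraries in opposite directions in 2 gates, beyond counting error in both. With 1 library per condition these differences were not tested.

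For Ccl19 the log2 ratio of irradiated over control was 1.21 in cTECs, on 23 control and 88 irradiated UMIs, and -0.22 in Aire-high cells. Without the cell with the most UMIs in each library these were 1.32 and -0.22.

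For Ccl22 it was 0.38 in Aire-high cells and -1.90 in basal cells. In the control library 63 of the 69 basal UMIs lay in 1 cell, and without the top cells the basal value was 1.19 and the Aire-high value 0.51.

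For Ccl5 it was 1.65 in dividing cells and -0.80 in basal cells, and without the top cells 1.12 and -0.01.

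For Cxcl10 it was 1.19 in Aire-low cells and -2.72 in Pdpn+ cells, and without the top cells the second was -3.48. The immediate early genes in Pdpn+ cells were 94.2 and 36.8 per 10000, and in Aire-low cells 23.5 and 19.7. Their part in this was not tested.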

How the results depend on the processing

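The log2 ratio of each member in its gate was recomputed under 9 settings listed at the outset and 3 chosen after seeing the data, and those in basal and Aire-high cells also in 3 groups of cells by immediate early genes. Cxcl10 in basal cells was added to them after seeing the data. Of 141 values, 96 stayed within the range of the reported one. A listed setting that puts cells with markers of 2 gates into the first of them added 0 cells to these gates and gave no value. Libraries of 1 per condition allow no value without a library. No paired analysis was possible because each condition had 1 library.

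With cells holding thymocyte, dendritic cell or fibroblast UMIs left out, the ratio was 0.0908 for Ccl11, 0.57 for Ccl17, -0.14 for Ccl19, -1.53 for Ccl22, 0.28 for Cxcl10, and it reversed for Ccl5 (-0.12) and Xcl1 (-0.21). With gates of doubled marker UMIs it was 0.20 for Ccl11, 2.39 for Ccl17, -0.0336 for Ccl21a, 0.17 for Ccl5 and -0.39 for Cxcl14. With cells with markers of 2 gates counted in each of them, it was 0.0200 for Ccl11, -0.105 for Ccl21a and -0.0426 for Cxcl10 in Aire-high cells, and it reversed for Ccl5 (-0.232) and Xcl1 (-0.139). As a mean over cells it was 0.0509 for Ccl11, 0.60 for Ccl17 and -0.0486 for Cxcl10. Without the 1% of cells with the most UMIs of the member it was 0.60 for Ccl5 and reversed to -1.39 for Xcl1, and without the top cell of each library it was 0.60 for Ccl5. With at most 6000 detected genes it was 0.50 for Xcl1.

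Within cells split by immediate early genes into a lowest, middle and highest group, in that order, it was -0.0876, -0.0292 and 0.0318 for Ccl21a, -0.44, -0.17 and -0.0808 for Ccl19, and -0.36, 0.13 and 0.25 for Cxcl10 in Aire-high cells. For Xcl1 it was -0.40, 1.25 and -0.35, reversing in the lowest and highest groups. For Ccl11 it was 0.0523 in the lowest and 0.24 in the middle group, and for Cxcl14 it reversed to 0.0381 in the middle group. The cause of these changes was not tested.

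For Cxcl10 in basal cells it was -0.781 with doubled marker UMIs, -0.963 as a mean over cells, -1.03 without the top 1% of cells and -0.805 in the highest group, and it reversed in the lowest (0.323) and middle (0.0345) groups. The differences in the share of cells with a UMI, without thinning and at 2000 UMIs, lay inside the range that the intervals allow. But for Ccl17 in Aire-low cells the difference was 1.16 points as reported and -5.37 without thinning, a change of sign. For Cxcl10 in basal cells it was -15.7 as reported, -13.9 without thinning and -15.9 at 2000 UMIs. With a minimum of 30 UMIs, where more genes are read, the number of genes past 1.5 times was 2787 in Aire-high, 2045 in Aire-low, 1437 in Pdpn+, 1157 in basal, 1185 in cTEC, 1429 in dividing and 1353 in tuft-like cells, against 1145, 511, 361, 472, 343, 518 and 306.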
